A study of Mus musculus with 12 samples.

Results

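Transcripts of 9 enzyme genes were followed in 4T1 cells, a mammary carcinoma line derived from a BALB/c mouse. The genes were taken by name: Nos2, Ass1, Arg2 and Gch1 from arginine and nitric oxide metabolism, Ptgs1, Ptgs2 and Ptges from prostaglandin synthesis, and Ido1 and Acod1 from tryptophan breakdown and itaconate synthesis. They are 9 of the 22298 genes in the deposited count table. There were 3 populations. Of these, 2 carried guides against Cop1 (sgRNA1 or sgRNA2) and 1 a guide against Rosa26, a locus often cut as a neutral control. Each was given vehicle or 24 hours of interferon gamma (IFNγ) at 20 ng/ml, which gave 6 groups of 2 RNA-seq libraries. The labels do not state that the libraries of a group came from separate cultures, so p-values cover only the spread between these libraries, which may be technical. The sources used here do not give whether a population was a pool or a clone, or where the guides cut in Cop1. Every Cop1 comparison uses the same Rosa26 population, so loss of Cop1 and a property of that population cannot be told apart.

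The product of Nos2, inducible nitric oxide synthase, makes nitric oxide from arginine and needs the cofactor tetrahydrobiopterin, which is made from GTP in a pathway opened by the product of Gch1. Cyclooxygenases convert arachidonic acid to a prostaglandin precursor, from which the product of Ptges makes prostaglandin E. Ido1 opens the breakdown of tryptophan to kynurenine, and Acod1 takes cis-aconitate from the TCA cycle to make itaconate. These products are known to act on immune cells in tumours, and Nos2, Ido1 and Acod1 are textbook targets of interferon. COP1 is a ubiquitin ligase, and c-Jun and C/EBP proteins are among its known substrates.

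Library totals ran from 19378070 to 32609717 counts, and 11904 genes passed the low-count filter, all 9 enzyme genes among them. Ido1 passed only through its IFNγ libraries. Cop1 mRNA was the check of the guides. In vehicle it averaged 61.1 CPM (a gene's count scaled by its library's total) with sgRNA1, 34.6 with sgRNA2 and 93.9 with Rosa26. With IFNγ it averaged 60.4 and 32.9 CPM against 81.9 CPM. Its change was called, but not with the libraries of each population and treatment summed (log2 -0.97 in vehicle and -0.80 with IFNγ). These libraries give no level of COP1 protein, so loss of Cop1 below names the populations with a Cop1 guide. Of 10 mammary epithelial markers 9 were measured, with a summed level between 3559 and 4509 CPM in the 12 libraries, while Krt5 had no count. In vehicle this list summed to 4134 and 4261 CPM in the Rosa26 libraries and to 4466 to 4509 CPM in the Cop1-guide libraries. With IFNγ the sums were 3559 and 3561 CPM in Rosa26 and 3796 to 3894 CPM with the Cop1 guides, so they were higher with the guides in each treatment. Of 14 leukocyte markers 5 passed the filter. Their list summed to 32.7 and 33.0 CPM in the Rosa26 vehicle libraries against 24.7 to 28.4 CPM in the Cop1-guide vehicle libraries, and to 42.7 and 44.5 CPM against 26.9 to 33.3 CPM with IFNγ, so it moved in the same direction as most of the enzyme genes. Adgre1, Lyz1 and Cd3e had 0 counts in all 12 libraries, Itgam had 2 counts and Ptprc 15 counts in all. The 5 that passed were Cd14 with 4650 counts in all 12 libraries, Cd68 with 2328, S100a8 with 1036, Mrc1 with 620 and Csf1r with 146, and of these Cd14 and Cd68 were called lower with loss of Cop1 in each treatment. The list of 11 fibroblast and endothelial markers, of which 4 passed, summed to 27.9 and 29.7 CPM in the Rosa26 vehicle libraries and to 20.1 to 24.7 CPM in the Cop1-guide vehicle libraries, with 1 count of Lum and 46 counts of Pecam1 in all. The 4 that passed were Pdgfra with 5070 counts (at most 23.3 CPM in a library), Postn with 559, Col1a1 with 108 and Cdh5 with 101, and of these all but Cdh5 were called lower with loss of Cop1 in vehicle. With IFNγ it summed to 18.9 and 19.0 CPM in Rosa26 and 17.2 to 19.3 CPM with the Cop1 guides. The part of the detected markers in the results below was not tested.

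Transcripts of most of these enzymes were lower where Cop1 was targeted, and 1 was higher. With loss of Cop1, given here as the mean of both guides against Rosa26, transcripts of 7 of the 9 enzymes were lower in vehicle and 1, Ptges, was higher. The lower ones were Nos2, Ass1, Arg2, Gch1, Ptgs1, Ptgs2 and Acod1, and Ido1 was at the detection limit and was not called. The 8 calls compare with 35.8% of all tested genes called in this comparison (16.6% higher, 19.2% lower), by edgeR's quasi-likelihood test at a Benjamini-Hochberg adjusted p under 0.05. With IFNγ all 9 were called, 8 lower and Ptges higher, beside 40.6% of all tested genes (19.8% higher, 20.7% lower). The median log2 change of the 9 genes was -0.82 in vehicle and -0.93 with IFNγ, and that of all tested genes was -0.01 in vehicle and 0.00 with IFNγ. In each treatment every Cop1-guide library lay below both Rosa26 libraries for 7 genes in vehicle and 8 with IFNγ, and above both for Ptges. How many of all tested genes were separated in this way was not counted, so these numbers only describe the 9 genes. These are bulk libraries, so fewer cells that express a gene and less RNA per cell cannot be told apart.

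**Figure D1:**
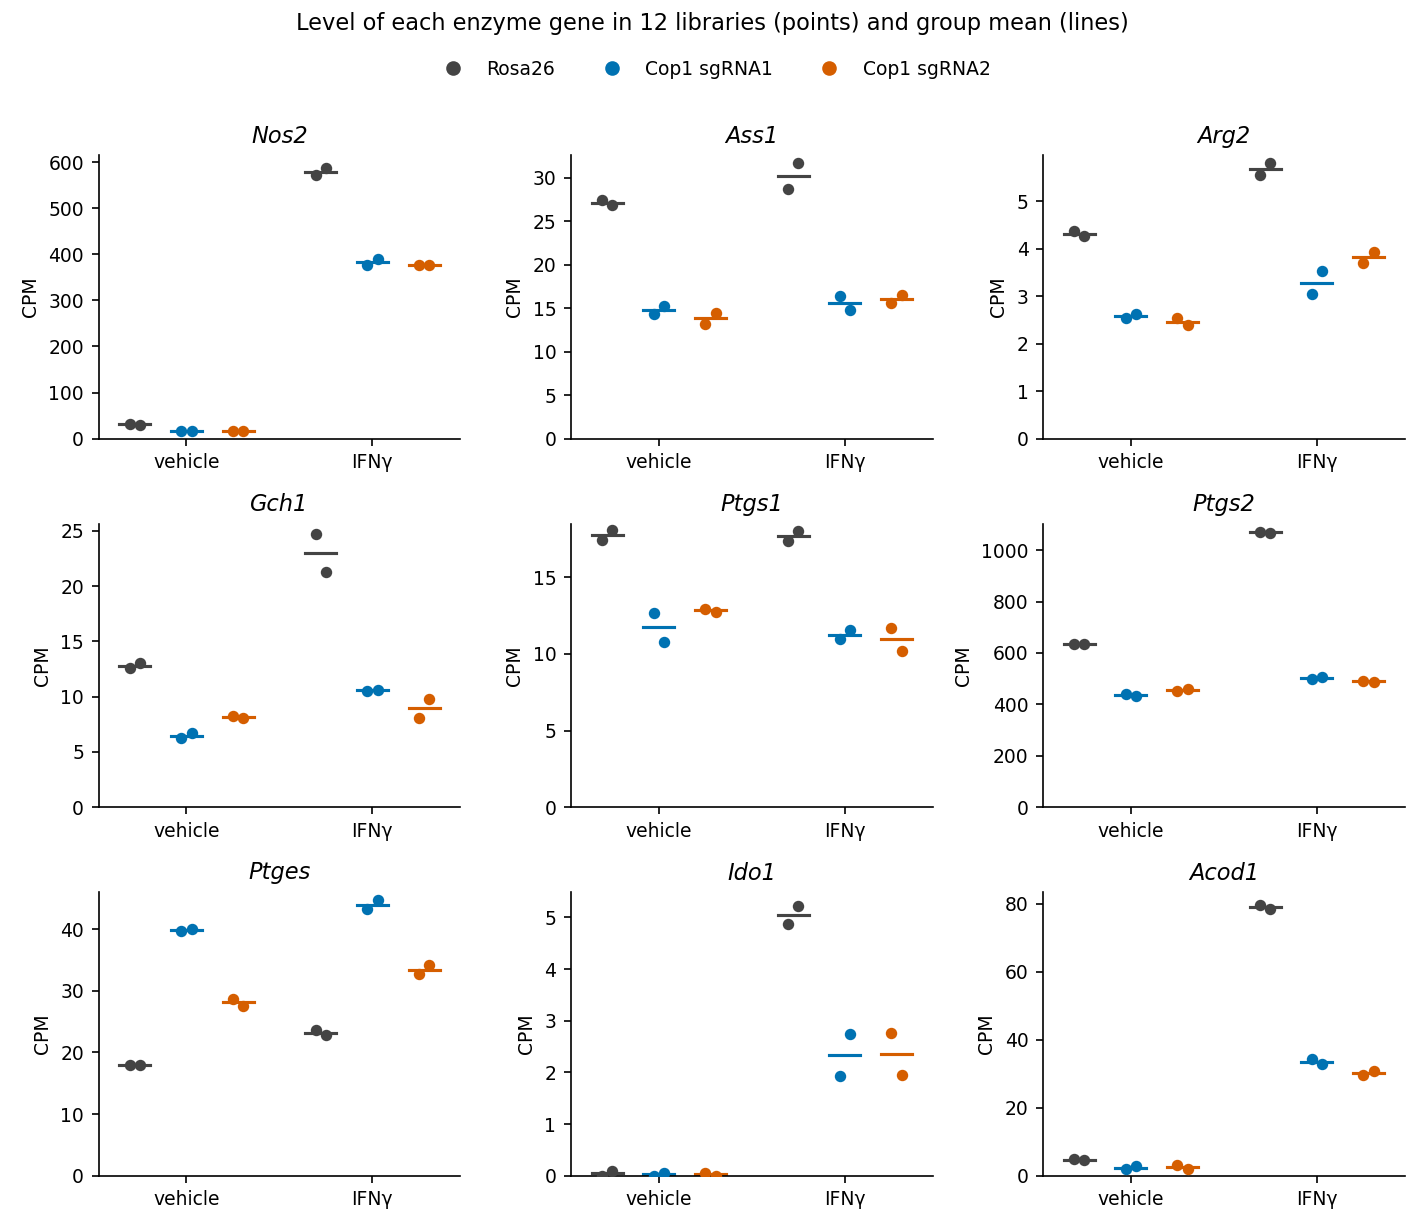
CPM of each of the 9 enzyme genes in every library, 1 panel per gene with its own linear axis from 0, by population and treatment, each point 1 library and each short line the mean of 2. Cop1-guide points lie below the Rosa26 points of the same treatment in all panels but Ptges, where they lie above, and Ido1 in vehicle, where all groups are near 0.

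Ido1 passed the filter on low counts through its IFNγ libraries alone, so its call for IFNγ was fixed by the filter and is left out of the counts of IFNγ responses. Of the other 8 transcripts IFNγ raised 5 in Rosa26 cells, beside 32.8% of all tested genes called (16.6% higher, 16.2% lower). Nos2 and Acod1 rose most, followed by Gch1, Ptgs2 and Ptges, while Ass1, Arg2 and Ptgs1 were not called. In Cop1-loss cells 6 of the 8 rose, the same 5 and Arg2, beside 34.2% of all tested genes (18.1% higher, 16.1% lower). The call of Arg2 ended when sgRNA1 vehicle replicate 1 (adjusted p = 0.0514) or sgRNA1 IFNγ replicate 2 (adjusted p = 0.07) was left out. With the libraries of each population and treatment summed, which leaves only the difference between guides as spread, the IFNγ calls of Arg2, Gch1, Ptgs2 and Ptges in Cop1-loss cells ended (edgeR, adjusted p = 0.111, 0.0818, 0.0771 and 0.699). The difference between the IFNγ response of Cop1-loss cells and that of Rosa26 cells, tested as an interaction in edgeR, was called for 2 of the 9 genes, Ptgs2 (smaller response) and Nos2 (larger response). In the same test 5.74% of all tested genes were called (3.38% higher, 2.36% lower). The Rosa26 libraries enter both the Cop1 and the IFNγ comparisons, so these comparisons are not independent of each other.

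Taken guide by guide, 8 of the 9 genes were called against Rosa26 in vehicle with each guide, beside 33.4% of all tested genes with sgRNA1 (15.8% higher, 17.5% lower) and 29.2% with sgRNA2 (13.5% higher, 15.7% lower). With IFNγ all 9 were called with each guide, beside 38.2% with sgRNA1 (18.9% higher, 19.3% lower) and 32.9% with sgRNA2 (16.6% higher, 16.2% lower). In every one of these comparisons Ptges was the 1 gene that was higher. The calls of Arg2 were the least firm. With sgRNA1 in vehicle (-0.74 ± 0.22, adjusted p = 0.00635) its call ended without Cop1_sgRNA1 vehicle replicate 1, and with sgRNA2 and IFNγ (-0.57 ± 0.21, adjusted p = 0.0289) it ended in 4 of the 12 fits that left out 1 library and in DESeq2. Of the 8 genes other than Ido1, IFNγ raised 4 in sgRNA1 cells, beside 22.5% of all tested genes (12.5% higher, 9.98% lower), and 5 in sgRNA2 cells, beside 25.3% (14.2% higher, 11% lower). Nos2, Ptgs2 and Acod1 were called in both, though the sgRNA2 call of Ptgs2 ended without Cop1_sgRNA2 IFNγ replicate 1 (log2 change 0.095). Gch1 was called in sgRNA1 cells and not in sgRNA2 cells, and Arg2 and Ptges in sgRNA2 cells and not in sgRNA1 cells. The sgRNA2 call of Arg2 (0.63, adjusted p = 0.0396) ended in 7 of 18 alternative fits: without any 1 of the 4 sgRNA2 libraries (0.58 to 0.68, adjusted p = 0.0985 to 0.166), without the filter, with only the groups compared and in DESeq2. That of Ptges (0.25, adjusted p = 0.0112) ended without Cop1_sgRNA2 vehicle replicate 2 (adjusted p = 0.094) or Cop1_sgRNA2 IFNγ replicate 2 (adjusted p = 0.107). The responses of the guides were not called different for any of the 9 genes.

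**Figure D2:**
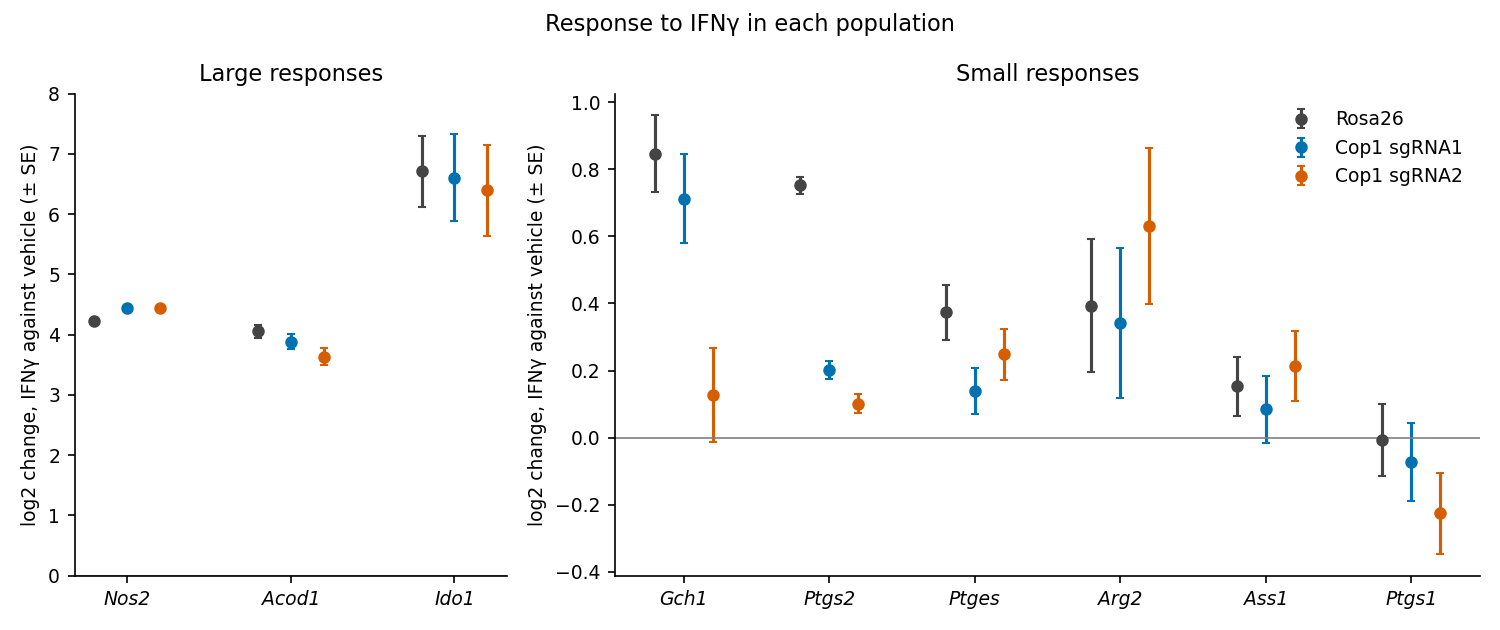
Log2 change with IFNγ against vehicle in Rosa26, Cop1 sgRNA1 and Cop1 sgRNA2 cells for the 9 enzyme genes, with bars of ± 1 standard error and separate scales for large (left) and small (right) responses, the fitted Ido1 values resting on 0 to 2 vehicle counts a library. Ptgs2 stands at 0.75 in Rosa26 cells against 0.20 and 0.10 in the Cop1-guide cells, whereas the Nos2 points lie between 4.23 and 4.45.

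Nos2 (chromosome 11, 78920787 to 78960254, plus strand of GRCm38, 26 exons in its principal transcript, as the GENCODE annotation gives it) was low in vehicle and strongly raised by IFNγ in all 3 populations, and was lower with both guides in both treatments. In vehicle it stood at 31.8 and 29.9 CPM in the Rosa26 libraries, 17.4 and 17.7 CPM with sgRNA1 and 17.5 and 17.2 CPM with sgRNA2. With IFNγ it stood at 572 and 587 CPM in Rosa26, 377 and 389 CPM with sgRNA1 and 377 and 376 CPM with sgRNA2. The guides' libraries lay side by side in both treatments, all below both Rosa26 libraries, and no vehicle library came near any IFNγ library. Against Rosa26, the log2 change in vehicle was -0.81 ± 0.06 with sgRNA1 and -0.83 ± 0.06 with sgRNA2 (± standard error, here and for the log2 changes that follow). With IFNγ it was -0.60 ± 0.03 and -0.62 ± 0.03, and the difference between the guides, sgRNA2 minus sgRNA1, had a 95% confidence interval from -0.14 to 0.11 in vehicle and from -0.09 to 0.04 with IFNγ. IFNγ raised Nos2 18.8-fold in Rosa26 cells (log2 change 4.23 ± 0.04) and 21.8-fold in Cop1-loss cells (4.44 ± 0.03). The interaction was 0.21 ± 0.06 (edgeR's quasi-likelihood test, adjusted p = 0.0142). This call depended on single Rosa26 libraries: leaving out vehicle replicate 1 gave 0.17 (adjusted p = 0.183) and leaving out IFNγ replicate 1 gave 0.19 (adjusted p = 0.0774).

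Ass1, which encodes the argininosuccinate synthase that rebuilds arginine from citrulline, was lower with both guides at every treatment and was not called for IFNγ in any population. It lies on chromosome 2 (31470207 to 31520672, plus strand, 16 exons). It stood at 27.4 and 26.9 CPM in the Rosa26 vehicle libraries, 14.3 and 15.3 CPM with sgRNA1 and 13.2 and 14.4 CPM with sgRNA2. With IFNγ it stood at 28.7 and 31.7 CPM in Rosa26, 16.4 and 14.7 CPM with sgRNA1 and 15.6 and 16.5 CPM with sgRNA2. The guides overlapped each other, and none of their libraries reached a Rosa26 library. Averaged over the guides, the change was -0.93 ± 0.08 in vehicle (adjusted p = 1.63e-12) and -0.93 ± 0.08 with IFNγ (adjusted p = 6.13e-13). The IFNγ response was 0.15 ± 0.09 in Rosa26 cells (95% confidence interval -0.02 to 0.33, adjusted p = 0.187) and 0.15 ± 0.07 in Cop1-loss cells (adjusted p = 0.112), and their difference had an interval from -0.24 to 0.23.

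Arg2, which encodes the mitochondrial arginase that splits arginine into ornithine and urea, was lower too, at a low level. Its libraries held 4.27 and 4.37 CPM in Rosa26 vehicle, 2.55 and 2.63 CPM with sgRNA1 and 2.39 and 2.55 CPM with sgRNA2. With IFNγ they held 5.54 and 5.80 CPM in Rosa26 and 3.04 to 3.94 CPM with the guides. No Cop1-guide library reached a Rosa26 library of its treatment, and the guides overlapped in vehicle. Averaged over the guides, the change was -0.77 ± 0.19 in vehicle (adjusted p = 0.000966) and -0.68 ± 0.17 under IFNγ (adjusted p = 0.00149). Its locus on chromosome 12 (79130777 to 79156301, plus strand, 8 exons) shares 28.1% of its exon bases with genes on the other strand, Vti1b and Gm48780. The strand setting of the counting is not given in the sources used here, so reads of these genes may be mixed and the value of Arg2 is uncertain.

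Gch1, the gene of GTP cyclohydrolase, was lower with both guides in both treatments. It stood at 12.6 and 13.0 CPM in the Rosa26 vehicle libraries, 6.22 and 6.72 CPM with sgRNA1 and 8.22 and 8.07 CPM with sgRNA2. With IFNγ it stood at 24.7 and 21.3 CPM in Rosa26, 10.5 and 10.6 CPM with sgRNA1 and 8.09 and 9.77 CPM with sgRNA2. The order of the guides thus turned over between the treatments, and the sgRNA2 libraries with IFNγ lay on both sides of the sgRNA2 vehicle libraries' upper value. Averaged over the guides, the change against Rosa26 was -0.82 ± 0.11 in vehicle (adjusted p = 7.97e-08) and -1.25 ± 0.10 with IFNγ (adjusted p = 9.12e-14). IFNγ raised Gch1 by 0.85 ± 0.11 in Rosa26 cells (adjusted p = 7.97e-08) and by 0.71 ± 0.13 in sgRNA1 cells (adjusted p = 5.01e-05), and the change in sgRNA2 cells was 0.13 ± 0.14 (adjusted p = 0.56).

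The IFNγ response of Gch1 was smaller in sgRNA2 cells than in Rosa26 cells (difference -0.72 ± 0.18, edgeR, adjusted p = 0.0114). In this comparison 2 of the 9 genes, Gch1 and Ptgs2, were called, both lower, beside 4.78% of all tested genes (2.83% higher, 1.95% lower). This call of Gch1 ended without Rosa26 IFNγ replicate 1 (-0.61, adjusted p = 0.101) or without Cop1_sgRNA2 IFNγ replicate 1 (-0.58, adjusted p = 0.123), and DESeq2 gave no adjusted p for Gch1 in this comparison. In sgRNA1 cells the difference from Rosa26 was -0.13 ± 0.18 (adjusted p = 0.803). The responses of the guides were compared directly in a comparison added after the data were seen: sgRNA2 minus sgRNA1 was -0.59 ± 0.19 for Gch1 (unadjusted p = 0.00425, adjusted p = 0.317). None of the 9 genes was called there by edgeR, beside 0.042% of all tested genes (0.0252% higher, 0.0168% lower). DESeq2 gave an adjusted p for 2 of the 9, Nos2 and Ptgs2, and called neither. In edgeR 2 of the 9 (Gch1 and Ptgs2) had an unadjusted p under 0.05, beside 1043 of the 11904 tested genes. The Gch1 responses of the guides thus did not differ past the threshold, with a 95% confidence interval of the difference from -0.98 to -0.19. For the mean of the guides the interaction was -0.43 ± 0.15 (adjusted p = 0.0877), and it was called without Cop1_sgRNA2 IFNγ replicate 2 (-0.51, adjusted p = 0.0489).

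Promoter sequence was available for 6 of the 9 genes (Acod1, Ass1, Gch1, Ptges, Ptgs1 and Ptgs2) in a table made from RefSeq on GRCm38.p6, and the 250 bases before the listed start were searched on both strands. Motifs searched included the ISRE core (GAAA, any 2 bases, GAAA), NF-kB (GGG, any 5 bases, CC), C/EBP (TTNNGNAA) and AP-1 (TGANTCA). These letters occur in 2.98%, 45.8%, 36.8% and 6.75% of 32851 such windows, in that order. The NF-kB letters matched in 5 of the 6 genes (not Ptgs1) and the C/EBP letters in 3 of the 6 (Gch1, Ptges and Ptgs2), while ISRE core and AP-1 letters matched in none of the 6 windows. A match is a string of letters and not a measured binding site. The window of Gch1 is shown because Gch1 was low with both guides and its response to IFNγ was called different from Rosa26 with sgRNA2. It covers chr14:47189414-47189663 on the minus strand, written 5′ to 3′ with motif letters in capitals, NF-kB at 174, 132 and 10 bases and C/EBP at 153 bases before the start (first base of the match).
Gch1: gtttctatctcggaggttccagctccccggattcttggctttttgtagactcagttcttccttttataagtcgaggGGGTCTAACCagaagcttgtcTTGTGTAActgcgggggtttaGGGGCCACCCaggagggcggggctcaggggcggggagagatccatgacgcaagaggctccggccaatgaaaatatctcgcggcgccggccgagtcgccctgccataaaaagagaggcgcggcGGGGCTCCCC
Gch1 itself lies just downstream, on chromosome 14 from 47153895 to 47189413 (minus strand) with 6 exons.

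Other tested genes of arginine and nitric oxide metabolism changed by less than Nos2, Ass1 and Gch1. Of 13 listed, 7 passed the filter, and with loss of Cop1 2 rose and 4 fell in each treatment, with a median log2 change of -0.16 in vehicle and -0.12 with IFNγ. Here and for the lists below, the shares of all tested genes to set beside the counts are 35.8% in vehicle (16.6% higher, 19.2% lower) and 40.6% with IFNγ (19.8% higher, 20.7% lower). Odc1, the ornithine decarboxylase downstream of arginase, rose by 0.57 ± 0.02 without IFNγ (adjusted p = 1.43e-24) and 0.30 ± 0.02 with it. Slc7a1, an arginine transporter, fell, with a change of -0.24 ± 0.03 in vehicle and -0.33 ± 0.03 with IFNγ. Ddah1, which breaks down methylated arginines that inhibit nitric oxide synthases, fell by 0.27 ± 0.03 in vehicle on the log2 scale. Its paralog Ddah2 rose, by 0.45 ± 0.07 in vehicle and by 0.58 ± 0.07 with IFNγ (adjusted p = 6.97e-09). In vehicle Ddah2 stood at a mean of 31.6 CPM in Rosa26 cells, 44.8 CPM with sgRNA1 and 41.4 CPM with sgRNA2. With summed libraries the calls of Odc1 (adjusted p = 0.0823 in vehicle and 0.246 with IFNγ) and the vehicle calls of Slc7a1 (0.0814) and Ddah1 (0.0786) ended, while with IFNγ those of Slc7a1 and Ddah2 did not. The IFNγ response of Odc1 was smaller in Cop1-loss cells (-0.27 ± 0.03, adjusted p = 5.24e-09), the only call among these 7 in that test. With summed libraries no tested gene was called in it. Of 7 listed genes of tetrahydrobiopterin synthesis and recycling 6 were tested, with 1 lower and none higher in vehicle and 1 lower and 1 higher with IFNγ, against the shares given above. Gchfr, the feedback regulator of GTP cyclohydrolase, changed by -0.41 ± 0.11 in vehicle (adjusted p = 0.0028), but by -0.28 with an adjusted p of 0.16 when Rosa26 vehicle replicate 2 was left out. With IFNγ it changed by -0.42 ± 0.12 (adjusted p = 0.00334), and the adjusted p was 0.0512 when Rosa26 IFNγ replicate 2 was left out. The higher one was Spr, sepiapterin reductase (0.13 ± 0.05, adjusted p = 0.0375), a call that ended in DESeq2 and without Rosa26 IFNγ replicate 2 (0.064, adjusted p = 0.508), Cop1_sgRNA2 IFNγ replicate 2 or either sgRNA1 IFNγ library. Summing libraries ended the calls of Gchfr and Spr (adjusted p = 0.108 for Gchfr in vehicle, 0.0901 and 0.38 with IFNγ).

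With loss of Cop1 both cyclooxygenase transcripts were lower, and Ptges, the gene of the next enzyme of the pathway, was higher. Ptgs1, the cyclooxygenase known as constitutive, stood at 17.5 and 18.1 CPM in the Rosa26 vehicle libraries and 17.4 and 18.0 CPM in the Rosa26 IFNγ libraries. In the Cop1-guide libraries it ran from 10.8 to 12.9 CPM in vehicle and from 10.2 to 11.7 CPM with IFNγ. The Cop1-guide libraries therefore lay below the Rosa26 libraries in both treatments, and vehicle and IFNγ libraries overlapped in Rosa26 and sgRNA1 cells. The change averaged over the guides was -0.53 ± 0.09 in vehicle (adjusted p = 1.85e-05) and -0.67 ± 0.10 with IFNγ (adjusted p = 2.8e-07), and the IFNγ response in Rosa26 cells was -0.01 ± 0.11 with a 95% confidence interval from -0.22 to 0.21. Ptgs1 lies on chromosome 2 (36230426 to 36252272, plus strand, 11 exons), and 3.81% of its exon bases are shared with Gm43621 on the other strand.

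Ptgs2, the gene of the inducible cyclooxygenase-2, was the most abundant of the 9 transcripts, and its response to IFNγ was smaller with both guides than in Rosa26 cells. In vehicle it stood at 633 and 637 CPM in the Rosa26 libraries, 438 and 434 CPM with sgRNA1 and 451 and 461 CPM with sgRNA2. With IFNγ it stood at 1072 and 1066 CPM in Rosa26, 498 and 506 CPM with sgRNA1 and 491 and 487 CPM with sgRNA2. All 8 Cop1-guide libraries, treated or not, thus lay below the untreated Rosa26 libraries. IFNγ raised Ptgs2 by 0.75 ± 0.03 in Rosa26 cells (1.68-fold, edgeR, adjusted p = 2.93e-26). The rise was 0.20 ± 0.03 in sgRNA1 cells (1.15-fold) and 0.10 ± 0.03 in sgRNA2 cells (1.07-fold). The sgRNA2 call ended without Cop1_sgRNA2 IFNγ replicate 1 (log2 change 0.095). The difference from the Rosa26 response was -0.55 ± 0.04 for sgRNA1 (adjusted p = 1.18e-13), -0.65 ± 0.04 for sgRNA2 (adjusted p = 2.05e-16) and -0.60 ± 0.03 for their mean (adjusted p = 1.61e-17). In the sgRNA1 comparison 2 of the 9 genes, Ptgs2 and Nos2 (0.22 ± 0.06, adjusted p = 0.0482), were called beside 3.49% of all tested genes (1.81% higher, 1.68% lower). The sgRNA1 value of Nos2 was 0.17 and no longer called when Rosa26 vehicle replicate 1 was left out, and the call also ended when any of 8 other single libraries was left out. The Ptgs2 interaction stayed between -0.61 and -0.59 when any 1 library was left out. With the libraries of each population and treatment summed, so that the spread comes from the guides alone, it was -0.60 with an adjusted p of 0.0778.

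The window before the start of Ptgs2 is shown because Ptgs2 had this reduced response. It covers chr1:150099781-150100030 on the plus strand, with the C/EBP letters at 69 and 25 bases and the NF-kB letters at 23 bases before the start in capitals, the last 2 of which overlap. On the other strand the GENCODE annotation has exons of the antisense RNA gene Ptgs2os in this window.
Ptgs2: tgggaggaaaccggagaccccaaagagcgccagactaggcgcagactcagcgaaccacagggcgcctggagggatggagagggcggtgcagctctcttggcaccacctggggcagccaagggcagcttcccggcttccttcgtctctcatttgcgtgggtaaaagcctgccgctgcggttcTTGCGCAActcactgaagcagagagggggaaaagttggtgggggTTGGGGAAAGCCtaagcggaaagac
The gene runs from 150100031 to 150108227 on chromosome 1, with 10 exons.

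Ptges moved against the other 8 genes. It stood at 17.9 and 18.0 CPM in the Rosa26 vehicle libraries, 39.8 and 40.1 CPM with sgRNA1 and 28.7 and 27.6 CPM with sgRNA2. With IFNγ it stood at 23.6 and 22.9 CPM in Rosa26, 43.2 and 44.7 CPM with sgRNA1 and 32.7 and 34.2 CPM with sgRNA2. Every Cop1-guide library lay above every Rosa26 library of either treatment, and the guides did not overlap each other. Against Rosa26 the change in vehicle was 1.15 ± 0.08 with sgRNA1 (2.22-fold, adjusted p = 4.82e-16) and 0.65 ± 0.08 with sgRNA2 (1.57-fold, adjusted p = 2.05e-08). With IFNγ it was 0.92 ± 0.07 and 0.52 ± 0.08. IFNγ raised Ptges by 0.37 ± 0.08 in Rosa26 cells (adjusted p = 0.000325) and by 0.19 ± 0.05 in Cop1-loss cells (adjusted p = 0.00214), a difference of -0.18 ± 0.10 that was not called (adjusted p = 0.322). Both responses lost their call with summed libraries (adjusted p = 0.602 in Rosa26 and 0.699 in Cop1-loss cells). With the libraries of each population and treatment summed, the mean of the guides was 0.93 in vehicle (adjusted p = 0.162) and 0.74 with IFNγ (adjusted p = 0.197), and neither was called.

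Ptges was the 1 gene of the 9 called between the guides, in each treatment. It was lower in sgRNA2 than in sgRNA1 cells, with a change of -0.50 ± 0.07 in vehicle (edgeR, adjusted p = 4.12e-06) and -0.39 ± 0.07 with IFNγ (adjusted p = 0.000147). In these comparisons 5.99% of all tested genes were called in vehicle (2.58% higher, 3.41% lower) and 9.41% with IFNγ (5.07% higher, 4.33% lower). Those are 713 and 1120 genes, and 349 and 422 genes without the sgRNA1 replicate 1 library of that treatment, while Ptges kept its call when any 1 library was left out. Cop1 mRNA differed between the guides in the same direction, by -0.82 ± 0.06 in vehicle and -0.88 ± 0.06 with IFNγ. Of the guide populations, the one with more Cop1 mRNA thus had more Ptges mRNA. Rosa26 cells went the other way, with more Cop1 mRNA and less Ptges mRNA than either guide population in each treatment. A link between Cop1 mRNA and Ptges mRNA was not tested. For the other genes apart from Ido1 in vehicle, the largest difference between the guides in size was 0.34 ± 0.14 for Gch1 in vehicle (adjusted p = 0.173).

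The window before the RefSeq start of Ptges is given because Ptges alone of the 9 enzyme genes was higher with loss of Cop1. It covers chr2:30903298-30903547 on the minus strand, with the C/EBP letters at 198 bases and the NF-kB letters at 38 bases before the start in capitals.
Ptges: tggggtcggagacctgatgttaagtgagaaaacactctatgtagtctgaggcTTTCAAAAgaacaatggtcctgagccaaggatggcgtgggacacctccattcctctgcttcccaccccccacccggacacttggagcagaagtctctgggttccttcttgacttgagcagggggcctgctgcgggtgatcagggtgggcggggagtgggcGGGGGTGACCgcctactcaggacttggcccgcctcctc
In the annotation Ptges spans 30889471 to 30929863 on the minus strand of chromosome 2, with 3 exons in its principal transcript, so the annotated gene extends upstream of this window.

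**Figure D3:**
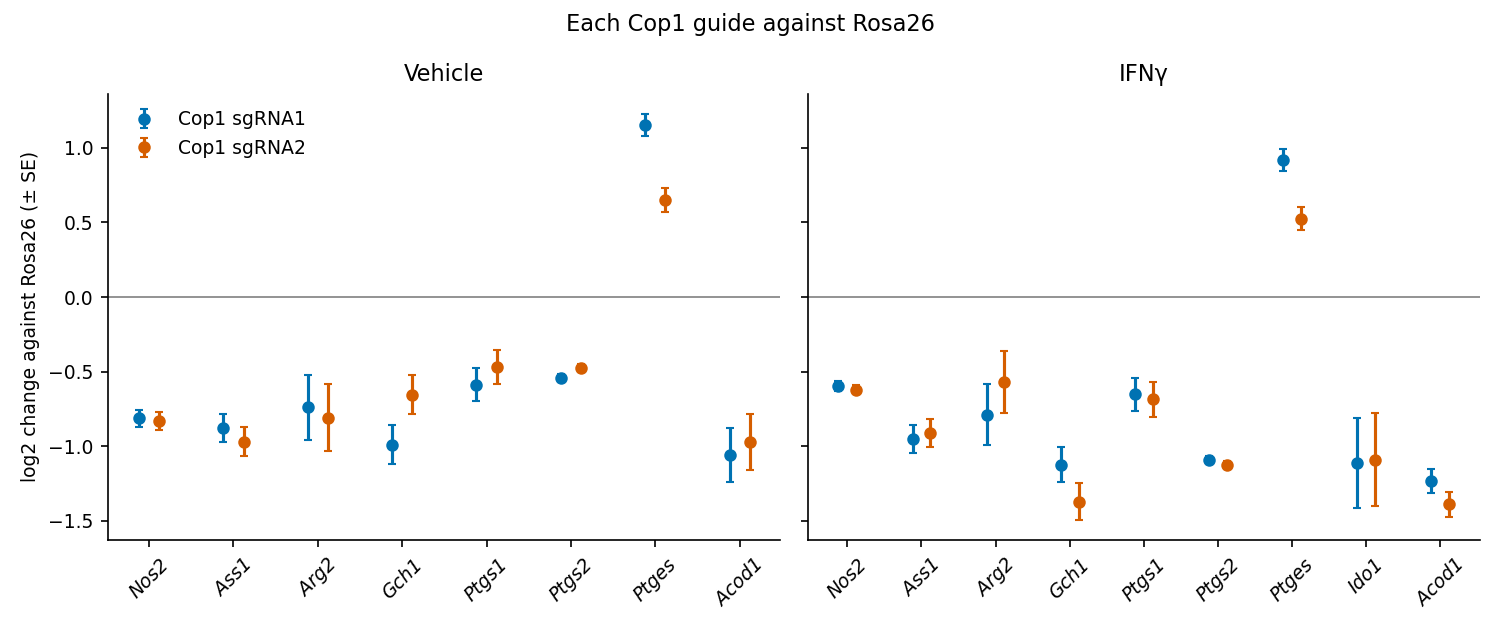
Log2 change against Rosa26 with sgRNA1 and with sgRNA2, in vehicle (left) and with IFNγ (right), for the 9 enzyme genes, with bars of ± 1 standard error and Ido1 in vehicle left out for want of counts. The points of both guides lie below 0 for 8 genes, and those of Ptges lie above 0, at 1.15 and 0.65 in vehicle.

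Among other genes of prostaglandin metabolism, those called changed by less than Ptgs1, Ptgs2 and Ptges. Of 11 listed genes of prostanoid synthesis 7 passed the filter, and with loss of Cop1 2 rose and 2 fell in vehicle and 3 rose and 2 fell with IFNγ, beside the shares of all tested genes given above for the arginine genes. Pla2g4a, the cytosolic phospholipase that releases arachidonic acid, fell, changing by -0.32 ± 0.04 in vehicle (adjusted p = 6.07e-09) and -0.38 ± 0.04 with IFNγ. Ptges3, the cytosolic prostaglandin E synthase and HSP90 partner, rose by 0.31 ± 0.03 and 0.25 ± 0.03. Akr1b3, an aldose reductase with prostaglandin F synthase activity, changed by -0.43 ± 0.03 and -0.29 ± 0.03, in the same order. Of 14 listed genes of prostanoid transport, breakdown and receptors, 5 passed the filter and 3 were lower in each treatment, none higher, again beside those shares. In vehicle these were Ptgr1 and Ptgr2, reductases that inactivate prostaglandins (-0.29 ± 0.07 and -0.28 ± 0.08), and the exporter gene Abcc4 (-0.20 ± 0.07). With IFNγ Ptgr2 changed by -0.35 ± 0.08 and Abcc4 by -0.19 ± 0.07, and Ptgr1 was not called (-0.09 ± 0.08). The vehicle call of Abcc4 ended in DESeq2 and without Rosa26 vehicle replicate 2 (adjusted p = 0.291), Cop1_sgRNA1 vehicle replicate 1 or Cop1_sgRNA2 vehicle replicate 2. Its IFNγ call ended in DESeq2 and without either Rosa26 IFNγ library (adjusted p = 0.0703 and 0.225), Cop1_sgRNA1 IFNγ replicate 1 or Cop1_sgRNA2 IFNγ replicate 2. The vehicle call of Ptgr2 ended without Rosa26 vehicle replicate 1 (adjusted p = 0.0625). Summed libraries left none of these Ptgr1, Ptgr2 and Abcc4 calls (adjusted p = 0.0544 to 0.216). Slco2a1, the prostaglandin uptake transporter, had a change of 0.00 ± 0.03 in vehicle (adjusted p = 0.929) and of -0.32 ± 0.03 with IFNγ (adjusted p = 1.01e-11), and its response to IFNγ differed between Cop1-loss and Rosa26 cells by -0.31 ± 0.04 (adjusted p = 1.04e-06).

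Per kilobase of exon (all annotated exons of a gene joined), a rough scale for comparing levels between genes, Ptgs2 led in all 6 groups. The transcripts present may be shorter than the joined exons, and the SDs given here cover the libraries only, not this length. The value of Arg2 also has the limit of its shared exon bases. In Rosa26 vehicle cells it stood at 139 CPM per kilobase, against 11.2 for Ass1, 6.99 for Nos2, 4.58 for Ptgs1 and 4.57 for Ptges (means of 2 libraries). Ptgs1 and Ptges did not differ there beyond their spread (SD 0.118 and 0.0103, n = 2). Arg2 at 3.02, Gch1 at 2.05, Acod1 at 1.81 and Ido1 at 0.0244 CPM per kilobase followed. In vehicle cells with a Cop1 guide Ptges came directly after Ptgs2, at 10.2 CPM per kilobase with sgRNA1 and 7.16 with sgRNA2, with Ass1 next at 6.12 and 5.73. With IFNγ the order in Rosa26 cells was Ptgs2 (233), Nos2 (131), Acod1 (30.1), Ass1 (12.5), Ptges (5.91), Ptgs1 (4.55), Arg2 (3.97), Gch1 (3.68) and Ido1 (2.76), of which Arg2 and Gch1 did not differ beyond their spread (SD 0.127 and 0.387, n = 2). In IFNγ-treated cells Ptgs2 and Nos2 were closer together with a Cop1 guide, at 110 and 86.9 CPM per kilobase with sgRNA1 and 107 and 85.3 with sgRNA2, as means of 2 libraries.

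Ido1, the indoleamine dioxygenase gene, was nearly silent in vehicle and was counted in every IFNγ library. In vehicle it had 0 and 2 counts in the Rosa26 libraries, 0 and 1 with sgRNA1 and 1 and 0 with sgRNA2. With IFNγ it had 114 and 119 counts in Rosa26, 49 and 63 with sgRNA1 and 61 and 37 with sgRNA2, or 4.86 and 5.23 CPM, 1.94 and 2.74 CPM, and 2.76 and 1.94 CPM. The treated Cop1-guide libraries lay below both treated Rosa26 libraries, and the guides overlapped each other. The ratio of IFNγ to vehicle, from 233 against 2 counts in Rosa26 cells, was 117 with an exact 95% counting interval from 32.1 to 975. It was 125 with sgRNA1 (22.0 to 4979) and 104 with sgRNA2 (18.3 to 4167), so a difference between these responses was not detectable at this depth. With IFNγ the change averaged over the guides was -1.10 ± 0.26 (edgeR, adjusted p = 0.000541). For the single guides it was -1.11 ± 0.30 with sgRNA1, no longer called without Cop1_sgRNA1 IFNγ replicate 1 (-0.88), and -1.09 ± 0.31 with sgRNA2, no longer called without Cop1_sgRNA2 IFNγ replicate 2 (-0.88). Ido1 lies on chromosome 8 (24584136 to 24597009, minus strand, 10 exons).

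Acod1, whose product makes itaconate, was low in vehicle and rose strongly with IFNγ in all 3 populations. In vehicle it stood at 4.82 and 4.67 CPM in the Rosa26 libraries, 1.93 and 2.77 CPM with sgRNA1 and 3.08 and 1.82 CPM with sgRNA2. With IFNγ it stood at 79.6 and 78.5 CPM in Rosa26, 34.4 and 32.8 CPM with sgRNA1 and 29.6 and 30.7 CPM with sgRNA2. The guides overlapped in vehicle, where the replicates were far apart, and no Cop1-guide library reached the Rosa26 libraries of its treatment. Averaged over the guides, the change was -1.02 ± 0.16 in vehicle (adjusted p = 1.1e-06) and -1.31 ± 0.07 with IFNγ (adjusted p = 1.23e-19). IFNγ raised Acod1 16.6-fold in Rosa26 cells (log2 change 4.06 ± 0.11) and 13.5-fold in Cop1-loss cells (3.76 ± 0.09), and the difference of -0.30 ± 0.17 was not called (95% confidence interval -0.64 to 0.05, adjusted p = 0.369). It ranged from -0.47 to -0.094 when single libraries were left out. For sgRNA2 alone the difference was -0.42 (adjusted p = 0.293), and it was called without Cop1_sgRNA2 vehicle replicate 2 (-0.77, adjusted p = 0.0462). Acod1 lies on chromosome 14 (103046977 to 103056573, plus strand, 5 exons).

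Among 15 listed genes of tryptophan and kynurenine metabolism, 9 passed the filter and 5 were lower with loss of Cop1 in each treatment, none higher, beside 19.2% of all tested genes lower in vehicle and 20.7% with IFNγ. Slc7a5 and Slc3a2, the chains of an amino acid transporter that carries tryptophan, fell, with changes of -0.41 ± 0.03 and -0.37 ± 0.03 in vehicle and -0.38 ± 0.03 and -0.66 ± 0.03 with IFNγ. Wars, the tryptophanyl-tRNA synthetase and a known IFNγ target, changed by -0.18 ± 0.04 in vehicle (adjusted p = 0.000105) and by -0.39 ± 0.03 under IFNγ (adjusted p = 5.35e-13). Leaving out Rosa26 vehicle replicate 1 ended the vehicle call (-0.11, adjusted p = 0.0638), as did summing libraries (adjusted p = 0.134). IFNγ raised Wars by 0.67 ± 0.04 in Rosa26 cells and by 0.45 ± 0.03 in Cop1-loss cells. The difference was -0.22 ± 0.05 (adjusted p = 0.00315), and its adjusted p was 0.115 when Rosa26 vehicle replicate 2 was left out. For Slc3a2 the corresponding responses were 0.48 ± 0.04 and 0.19 ± 0.03, with a difference of -0.29 ± 0.04 (adjusted p = 1.47e-05), and with summed libraries the response in Cop1-loss cells was not called (adjusted p = 0.0862). Ido2, a paralog of Ido1, had 25 counts over both Rosa26 vehicle libraries, 4 with sgRNA1 and 5 with sgRNA2, and 103, 96 and 72 with IFNγ. Its interaction of 2.22 ± 0.67 (adjusted p = 0.0392) rests on these few vehicle counts and was not called without Rosa26 vehicle replicate 2 (1.85, adjusted p = 0.273) or any of 7 other single libraries. Of 20 genes of the TCA cycle and itaconate metabolism, all tested, 1 was higher and 4 lower in vehicle and 7 higher and 3 lower with IFNγ, fewer in vehicle than the 35.8% of all tested genes and 10 of 20 beside 40.6% with IFNγ. With IFNγ the fumarase gene Fh1 changed by 0.20 ± 0.04, and the isocitrate dehydrogenase genes Idh2 and Idh3b by 0.19 ± 0.04 and -0.19 ± 0.04. In vehicle Idh3b changed by -0.13 ± 0.04, Mdh2 (malate dehydrogenase) by -0.08 ± 0.02 and Sdha (a succinate dehydrogenase subunit) by -0.09 ± 0.03. Leaving out Rosa26 vehicle replicate 1 ended the vehicle calls of Idh3b (adjusted p = 0.29) and Sdha (0.124), leaving out Rosa26 vehicle replicate 2 those of Mdh2 (0.107) and Sdha (0.0664), and leaving out Cop1_sgRNA2 vehicle replicate 1 that of Sdha (0.113). Leaving out Rosa26 IFNγ replicate 1 ended the IFNγ call of Idh3b (adjusted p = 0.0733). With summed libraries each of these calls of Fh1, Idh2, Idh3b, Mdh2 and Sdha ended (adjusted p = 0.0628 to 0.52).

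**Figure D4:**
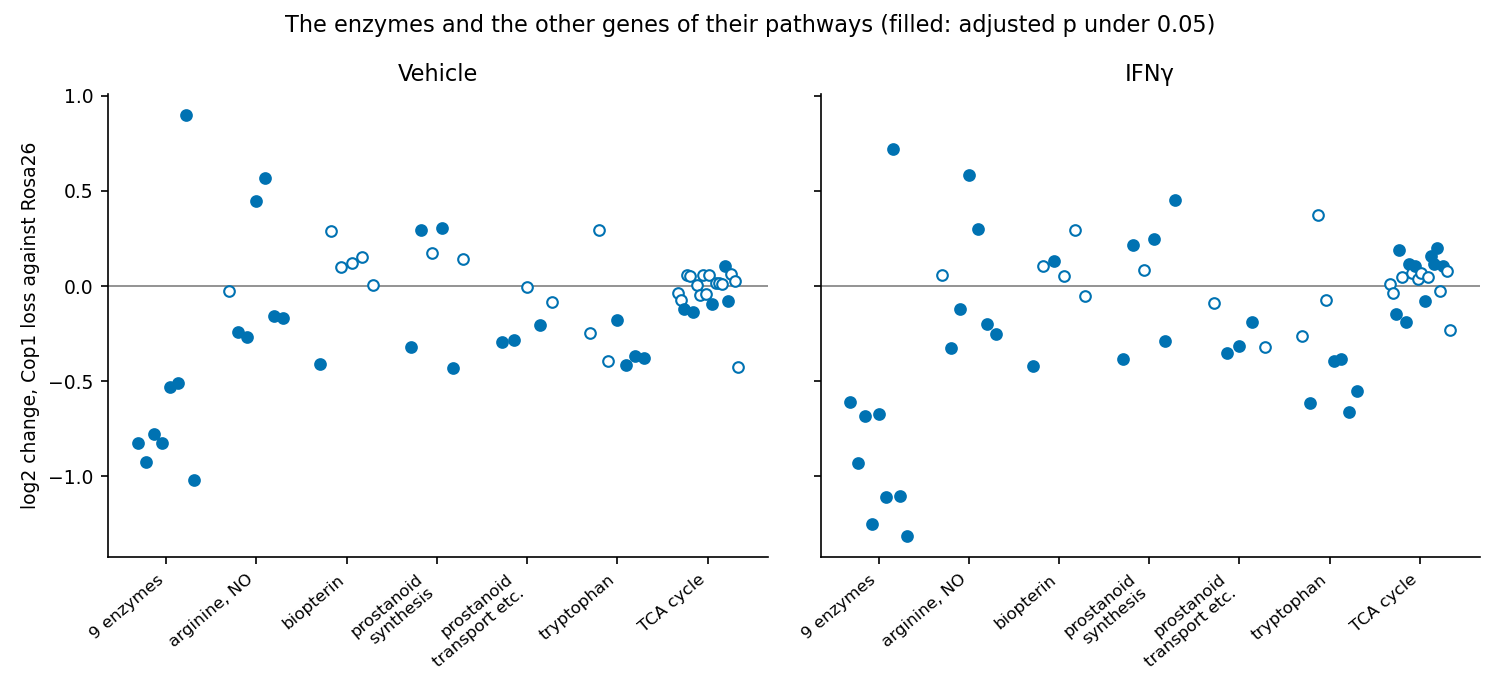
Log2 change with loss of Cop1 against Rosa26, in vehicle and with IFNγ, for the 9 enzyme genes and the tested genes of the 6 related lists, each point 1 gene, filled where called. Genes with a standard error above 0.6 are not drawn (4 in vehicle, 2 with IFNγ). The enzyme genes reach from -1.31 to 0.90, while the 7 tested genes of prostanoid synthesis centre on 0.14 in vehicle and 0.08 with IFNγ.

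Across the 12 libraries, the genes with the most similar pattern were ranked for each enzyme by Pearson's r of log2 CPM among the 9062 genes whose log2 CPM averaged 3 or more. The libraries share their groups, so high values of r describe the pattern of the 6 group means. For Nos2 these were Tapbpl, Ptpn13 and Parp14 (r 0.998, 0.998 and 0.997), and for Acod1 Serpina3g, Rnf19b and Trim56 (0.995, 0.991 and 0.991). Ptgs2 was most like Rela, which encodes an NF-kB subunit, Klf5 and Junb (0.992, 0.992 and 0.990). Gch1 was most like the chemokine gene Cxcl5 and then Prr13 and Zc3h12a (0.980, 0.974 and 0.969), and Ptges like Hbegf, an EGF receptor ligand, Elmo2 and Smim3 (0.986, 0.984 and 0.984). The remaining lists were Trafd1, Irf2 and Pim1 for Ido1 (0.991, 0.988 and 0.987), Cblc, Eprs and Stbd1 for Ass1 (0.984, 0.980 and 0.979), Pole, Samd12 and Pik3c2a for Arg2 (0.980, 0.979 and 0.978) and Ablim1, Mcoln1 and Tob1 for Ptgs1 (0.976, 0.971 and 0.965).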

How the data were processed

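The 12 RNA-seq libraries of 4T1 cells (2 in each of 6 groups) were prepared with a TruSeq RNA kit, per the labels' protocols. Per the submitters' processing notes, STAR 2.4.0, HTSeq (version not stated), DESeq2 1.10 and the genome build mm10 were used. The table deposited by the authors holds whole-number counts per gene and library, not normalized. Annotation, strand setting and the treatment of multiply mapped reads: not given in the sources used here. The table's last line holds totals and was not used as a gene. The depth of each library (19378070 to 32609717 counts) limits low genes, and the counting intervals cover counting error only.

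Counts were fitted with edgeR 4.0.16 (R 4.3.3): genes were kept by filterByExpr at a minimum count of 10 and a minimum total of 15, libraries were scaled by TMM, and 1 quasi-likelihood model gave each group a mean and all groups a common spread. It had 6 residual degrees of freedom and a median of 34.5 prior ones. Replicates of a group differed beyond counting noise (chi-square per degree of freedom 2.33 to 4.21), with a coefficient of variation of 3.21%. Comparisons were each guide and their mean against Rosa26, IFNγ against vehicle, guide against guide, and interactions, each adjusted over 11904 genes. CPM uses TMM-scaled totals. The code was tested on simulated counts. Alternatives were RLE size factors, DESeq2 1.42.0, other low-count filters, a replicate block, a fit on only the groups compared, leaving out each library, and summed libraries.

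Named are the 9 enzyme genes, Cop1, the 3 genes most like each enzyme and, from each of 6 related lists, the 3 called genes with the smallest p in a comparison. The rule also takes 2 genes without a call a list. Of the listed genes it takes, the text prints those called for loss of Cop1 (mean of the guides) or the interaction, and few of the others. The result of 1 motif searched is not reported here. The genes and lists were chosen with earlier results of these data known, so they are not independent support for any pattern. Loci are from GENCODE on GRCm38, which is mm10.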

Additional observations from a re-analysis of the deposited data

Results flagged for a closer look

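These results stood out because the response to IFNγ differed between cell populations in edgeR's test of the difference itself. Against Rosa26, the response averaged over both guides was larger for Nos2 (0.21 ± 0.06, log2 scale) and smaller for Ptgs2 (-0.60 ± 0.03). With sgRNA1 alone the differences were 0.22 for Nos2 and -0.55 for Ptgs2, and with sgRNA2 alone -0.72 for Gch1 and -0.65 for Ptgs2. Among genes of the related lists, the response averaged over the guides was smaller for Odc1 (-0.27), Slco2a1 (-0.31), Slc3a2 (-0.29) and Wars (-0.22) and larger for Ido2 (2.22), which had 4 and 5 counts in Cop1-guide vehicle cells. For Nos2, Gch1, Wars and Ido2 the call ended when single libraries named in the report were left out. With the libraries of each population and treatment summed, no tested gene, Ptgs2 included, was called for the response averaged over the guides. All of these comparisons share the 4 Rosa26 libraries.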

How the results depend on the processing

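The 9 genes' changes with loss of Cop1 against Rosa26, in vehicle and with IFNγ, were recomputed in 323 values, of which 321 kept direction and call, all 204 that left out a library among them. The other 2 were Ptges with summed libraries. Summing libraries (spread from the guides alone) called 902, 1443, 1125 and 1399 genes for Cop1 loss in vehicle, with IFNγ, and IFNγ in Rosa26 and in Cop1 loss (4258, 4828, 3900 and 4073 before). Among the 9 genes, the IFNγ calls of Nos2, Acod1 and Ido1 in Cop1 loss stayed, and that of Ido1 was fixed by the filter. No tested gene was called for the interaction with summed libraries. DESeq2 called 448 genes for that interaction (683 by edgeR) and 376 for that of sgRNA2 (569), with 1 of the 9 genes (no adjusted p for Gch1). For the sgRNA1 interaction 1 of the 9 (not 2) was called with a filter of 50 counts in 2 libraries, with a replicate block, with only the groups compared and by DESeq2. A fit of only the groups compared called 464 genes between guides in vehicle (713) and gave 0.00089 for IFNγ in Rosa26 for Ptgs1. The added comparison of the guides' responses called 5 genes, and 75 without a filter, 10 with a replicate block, 9 with only its groups and 15 by DESeq2.

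Leaving out 1 library gave these ranges of called genes: 348 to 733 for the Cop1 interaction (1 to 3 of the 9), 247 to 497 for sgRNA1 (1 to 2), 282 to 595 for sgRNA2 (1 to 3), 349 to 686 between guides in vehicle, 422 to 1264 between guides with IFNγ and 2 to 109 for the added comparison. The lowest and highest came, in turn, without Rosa26 IFNγ replicate 1, Rosa26 vehicle replicate 2 (both guides), Cop1_sgRNA1 vehicle replicate 1, Cop1_sgRNA1 IFNγ replicate 1 and Cop1_sgRNA2 IFNγ replicate 1, and, for each highest, Cop1_sgRNA2 vehicle replicate 2. The following values, none of them called, changed sign. For IFNγ they were Ptgs1 in Rosa26 (-0.034 to 0.020) and sgRNA1 (-0.17 to 0.058), Cop1 in sgRNA1 (-0.062 to 0.033) and Gch1 in sgRNA2 (-0.014 to 0.26). For the interaction they were Ass1 with Cop1 loss (-0.076 to 0.067), sgRNA1 (-0.15 to 0.0034) and sgRNA2 (-0.012 to 0.13). With sgRNA1 the interactions of Arg2 (-0.16 to 0.054), Ptgs1 (-0.16 to 0.064) and Acod1 (-0.46 to 0.059) also did. Between guides they were Acod1 in vehicle (-0.32 to 0.44) and, with IFNγ, Ass1 (-0.034 to 0.12), Ptgs1 (-0.14 to 0.057) and Ido1 (-0.26 to 0.29). In the added comparison they were Nos2 (-0.033 to 0.012) and Acod1 (-0.59 to 0.16). The ranges of Acod1 and Ido1 were the widest of these and were not confined to values near 0. The cause was not tested. Same-numbered libraries did not deviate together (r from -0.05 to 0.07 in 15 pairs of groups). This does not settle whether the numbers pair samples. The counts with a replicate block that moved are those above. Low counts limit Ido1 and Ido2.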
